A study of Mus musculus with 6 samples.

Results

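A set of 9 transcription factor genes that direct the secretory cells of the gut (Atoh1, Spdef, Gfi1, Creb3l1, Creb3l4, Foxa1, Foxa2, Foxa3 and Klf4) was followed in the epithelium of the fetal mouse small intestine. They were taken as a list of known regulators of secretory and goblet fate, chosen with earlier results of these data known. Each was read from its 1 probe set that is annotated to a single gene. All 9 were measured, out of 19938 genes on the array. RNA came from isolated epithelial cells at E18.5 and was read on Affymetrix whole-transcript gene arrays, from Gata4Gata6 double conditional knockout (cKO) mice on 3 arrays and from control mice on 3 arrays. The labels name neither the Cre driver nor the deleted exons nor the genotype of the control mice. GATA4 and GATA6, the factors the knockout aims at, are DNA-binding proteins that pattern the gut endoderm. Whether each array stands for its own animal is not said in the labels, so a p-value here covers the spread between 3 samples of a group, which may be technical for some arrays.

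Secretory cells of the intestine (goblet, Paneth, enteroendocrine and tuft cells) descend from progenitors that escape lateral inhibition by Notch. Notch signalling induces the repressor HES1, which silences Atoh1, and a cell that keeps Atoh1 enters the secretory programme. Downstream, GFI1 holds goblet and Paneth precursors away from the endocrine fate, SPDEF and KLF4 promote goblet maturation, the forkhead proteins FOXA1 and FOXA2 act on goblet and endocrine genes, and the CREB3-type proteins are membrane-bound factors of the secretory pathway that are cleaved to reach the nucleus.

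All 9 genes were higher on the arrays labelled cKO, by 1.36-fold for Gfi1 up to 3.38-fold for Creb3l1, and in each of the 9 the lowest cKO array lay above the highest control array. The 9 calls (limma, Benjamini-Hochberg adjusted p under 0.05 over all 19938 genes) compare with 5.52% of all genes called higher, and the 9 genes without overlap compare with 14.3% of all genes that were higher without overlap. Since the list was chosen with earlier results known, these shares describe the 9 genes and are not independent support. Over all 19938 genes, 1101 were called higher and 1479 lower, and 5294 had an unadjusted limma p under 0.05 in either direction. Counts for the other lists below are to be read beside these. The median log2 change was 1.17 over the 9 genes and -0.01 over all genes. These directions rest on the labels. The transcripts of the targeted genes were not reduced. Gata4 stood at 11.34, 11.39 and 11.51 on cKO arrays 1, 2 and 3, against 10.95, 10.93 and 10.96 on control arrays 1, 2 and 3, and Gata6 at 12.72, 12.69 and 12.72 against 12.23, 12.28 and 12.27 (changes of 0.47 ± 0.07 and 0.45 ± 0.06, limma adjusted p = 0.0101 and 0.0067). A probe set sums probes along the gene, so exons outside a deletion would still be counted. Both genes were higher on the cKO arrays, and the reason was not tested. The groups are therefore called the arrays labelled cKO, or cKO arrays for short, and control arrays.

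Promoter sequences of the genes that moved together are shown because the study was designed to remove a pair of DNA-binding factors. For 8 of the 9 genes (all but Creb3l1) a RefSeq promoter of build GRCm38.p6 was matched by symbol, and the 250 bases before the most upstream start listed for the gene were read 5′ to 3′ on the gene's strand. The motifs searched, on both strands, were the GATA factor words (AGATAA or AGATAG or TGATAA or TGATAG), the E-box CAGCTG, forkhead (TGTTTAC or TATTTAC or TGTTTGC) and KLF (GGGTGTGG or GGGCGTGG). None of these words contains another. A GATA word was found in 1 of the 8 windows (Creb3l4), against 27.1% of the 27025 windows in the table. Forkhead words were found in 2 windows (Foxa1 and Spdef), against 9.62% of the table. The E-box was found in 1 (Klf4), against 12.7%, and a KLF word in 1 (Foxa3), against 7.83%. A match is a description of letters and not a binding site, and a window without one says only that these letters are not in it. Shown are Atoh1, the first factor of the programme, in which none of the words was found (chr6:64728875-64729124, plus strand), Spdef with its forkhead word in capitals at position -47 from the start (chr17:27728952-27729201, minus strand), Foxa1 with its forkhead word in capitals at -141 (chr12:57546112-57546361, minus strand) and Creb3l4 with its GATA word in capitals at -85 (chr3:90243513-90243762, minus strand).
Atoh1: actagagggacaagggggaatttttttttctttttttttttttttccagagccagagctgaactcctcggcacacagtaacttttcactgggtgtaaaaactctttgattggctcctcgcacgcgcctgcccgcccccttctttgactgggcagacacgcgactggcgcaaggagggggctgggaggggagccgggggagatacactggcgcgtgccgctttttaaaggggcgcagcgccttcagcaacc
Spdef: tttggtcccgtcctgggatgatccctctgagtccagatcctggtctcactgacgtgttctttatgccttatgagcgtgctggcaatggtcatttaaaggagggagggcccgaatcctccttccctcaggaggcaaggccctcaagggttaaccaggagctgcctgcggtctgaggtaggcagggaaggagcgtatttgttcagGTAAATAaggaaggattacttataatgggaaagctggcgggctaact
Foxa1: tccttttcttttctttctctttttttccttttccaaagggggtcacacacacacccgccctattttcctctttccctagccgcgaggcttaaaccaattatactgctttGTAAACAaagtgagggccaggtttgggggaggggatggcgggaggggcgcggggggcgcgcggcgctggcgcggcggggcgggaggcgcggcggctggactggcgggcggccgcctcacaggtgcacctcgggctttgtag
Creb3l4: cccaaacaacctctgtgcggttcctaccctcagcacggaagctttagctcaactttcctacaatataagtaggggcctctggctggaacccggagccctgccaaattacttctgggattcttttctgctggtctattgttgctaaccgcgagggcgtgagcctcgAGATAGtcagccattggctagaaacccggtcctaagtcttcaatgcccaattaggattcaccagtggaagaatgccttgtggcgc

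Levels are the deposited values, read as log2, and changes are cKO minus control on that scale. A pair of arrays, cKO 2 and control 3, stood apart by marker transcripts before any comparison. Over all genes only cKO 2 did. It correlated at 0.9555 and 0.9553 with cKO 1 and cKO 3, which correlated at 0.988 with each other. Control 3 correlated at 0.9846 and 0.9851 with control 1 and control 2, near the 0.9878 between those. On cKO 2 a list of 13 hepatocyte markers averaged 12.49, against 7.96 and 7.99 on cKO 1 and cKO 3 and 9.19, 7.78 and 10.59 on control arrays 1, 2 and 3. On cKO 2 the 5 erythroid markers averaged 11.02, against 7.37 and 7.41 on the other cKO arrays and 9.06, 7.64 and 9.07 on the controls. Alb, the albumin gene, stood at 7.09, 13.66 and 6.96 on cKO arrays and 12.04, 6.56 and 13.19 on control arrays. Control 3 had the second highest hepatocyte level, and it alone had a male pattern of sex-linked transcripts (Xist 6.18 against 11.74 to 12.42 on the other 5 arrays). By that pattern control 3 was no technical repeat of control 1 or control 2. Results are also given without cKO 2 and control 3. Epithelial markers were high on every array: the 12 genes, Epcam and Cdh1 among them, averaged 12.1, 11.94 and 12.09 on cKO arrays against 11.82, 11.83 and 11.8 on control arrays. On cKO 2 this mean lay below that of the hepatocyte markers, so it does not show that the samples were pure. In whole-epithelium RNA, more cells of a type and more RNA per cell cannot be told apart.

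**Figure D1:**
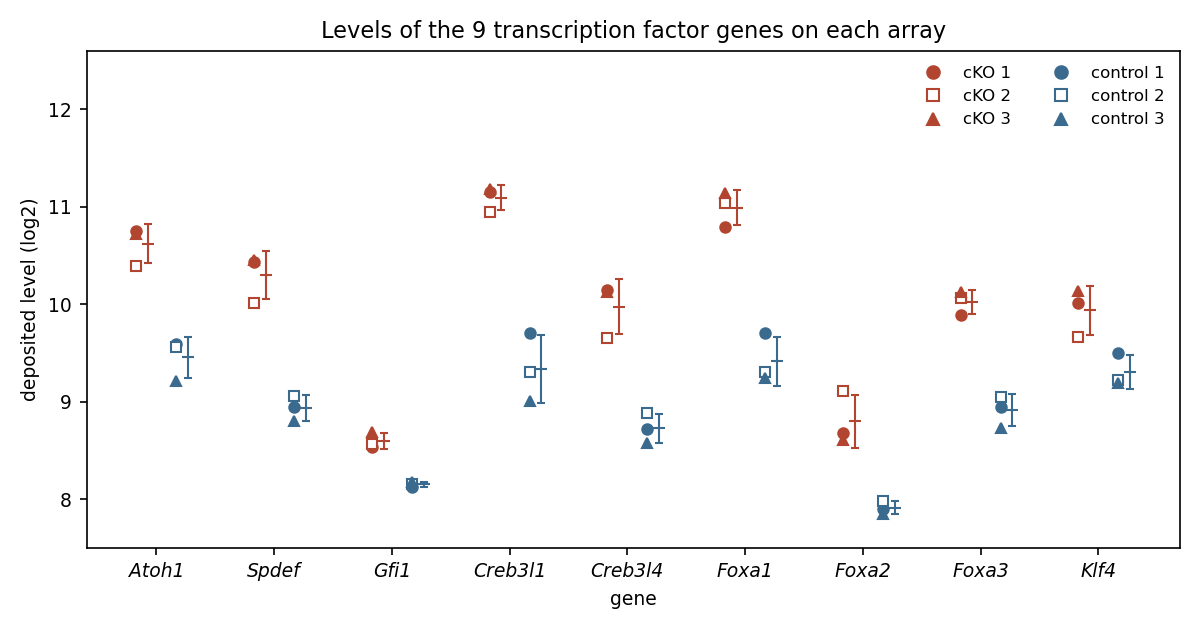
Deposited log2 level (y axis) of each of the 9 genes (x axis) on the 3 cKO arrays (red, left of each pair) and the 3 control arrays (blue, right). Symbols mark the array number and bars the group mean ± SD (n = 3 each), and in every gene all cKO points lie above all control points, with the narrowest gap in Klf4 (9.66 on cKO 2 against 9.5 on control 1).

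Atoh1, the helix-loop-helix gene that commits progenitors to the secretory fate, stood at 10.75, 10.39 and 10.72 on cKO arrays 1, 2 and 3, against 9.59, 9.56 and 9.21 on control arrays 1, 2 and 3. The groups did not overlap, with cKO 2 the lowest of its group and control 3 the lowest of the other. The rise was 1.17 ± 0.15 (SE, n = 3 each, 2.24-fold, limma adjusted p = 0.0041), and the call was kept with each array left out in turn (1.04 to 1.28).

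Gfi1, a zinc finger repressor that keeps goblet and Paneth precursors from becoming endocrine, had the smallest change of the 9. Its levels were 8.53, 8.57 and 8.69 on cKO arrays and 8.12, 8.15 and 8.18 on control arrays. The groups were tight and did not overlap. The rise was 0.45 ± 0.07 (1.36-fold, limma adjusted p = 0.0118). It lost its call without control 2 (adjusted p = 0.0521) and without control 3 and cKO 2 together (0.066). Gfi1 is also made by blood progenitors, and its relative Gfi1b, a gene of red cell and platelet precursors and of tuft cells, was at 10.35 on cKO 2 against 7.65 and 7.63 on the other cKO arrays and 8.24, 7.82 and 8.25 on the controls. On cKO 2 Gfi1 lay between its levels on cKO 1 and cKO 3, and without cKO 2 its change was 0.46 (adjusted p = 0.0265). The part of blood cell RNA in the Gfi1 result was not tested.

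Spdef, an ETS factor required for goblet and Paneth maturation, stood at 10.43, 10.01 and 10.45 on cKO arrays, against 8.95, 9.06 and 8.8 on control arrays. The lowest cKO array was again cKO 2 and the lowest control again control 3. The rise was 1.36 ± 0.14 (2.57-fold, limma adjusted p = 0.00208), with changes of 1.28 to 1.5 on leaving out 1 array and no call lost.

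Klf4, a Krüppel-like factor of differentiated surface epithelium that is needed for colonic goblet cells, had levels of 10.01, 9.66 and 10.14 on cKO arrays and 9.5, 9.22 and 9.19 on control arrays. Its groups came closest of the 9. The rise was 0.63 ± 0.15 (1.55-fold, limma adjusted p = 0.0414), and it was not called when any single array other than cKO 2 was dropped (adjusted p as high as 0.138), under quantile normalization (0.0664) and under median centring (0.0868). Klf4 is also expressed outside the epithelium. The 13 mesenchymal and muscle markers averaged 9.28, 9.05 and 8.28 on cKO arrays against 8.2, 7.83 and 8.02 on control arrays, with 12 of 13 changes above 0. Only 1 was called (Actg2, 1.85 ± 0.46, named after its values were seen). The count called higher was 7 without cKO 3, and 0 without any other single array. At an unadjusted limma p under 0.05, 9 of the 13 were higher and 1 lower, while 5294 of all 19938 genes passed in either direction. The 9 endothelial markers averaged 7.36, 8.48 and 7.05 on cKO arrays against 7.48, 7.45 and 7.999 on control arrays. None of these markers was at 0, and their part in the Klf4 result was not tested.

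The 3 Foxa genes, pioneer factors of endoderm whose products bind one and the same motif, all rose. Foxa1 stood at 10.79, 11.04 and 11.14 on cKO arrays and at 9.7, 9.3 and 9.24 on control arrays, a rise of 1.58 ± 0.15 (2.98-fold, limma adjusted p = 0.00161). Foxa3 stood at 9.89, 10.06 and 10.12 on cKO arrays and at 8.95, 9.05 and 8.73 on control arrays, a rise of 1.11 ± 0.11 (2.16-fold, limma adjusted p = 0.00175). Both had groups that lay far apart and kept their calls with 1 array left out (1.49 to 1.72 for Foxa1 and 1.02 to 1.18 for Foxa3), and cKO 2 was the middle cKO array in each.

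Foxa2 stood at 8.68, 9.11 and 8.61 on cKO arrays and 7.9, 7.98 and 7.85 on control arrays, again without overlap, and its rise was 0.89 ± 0.14 (1.85-fold, limma adjusted p = 0.00983). Unlike its relatives it was highest on cKO 2, the array with the high hepatocyte level, and liver expresses all 3 Foxa genes. Without cKO 2 the change was 0.74 and the call was kept (the largest adjusted p with 1 array left out was 0.0464). With the mean hepatocyte level, itself highest on cKO 2, as a covariate all 9 genes were called. The part of liver RNA in the Foxa2 result was not tested.

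Whether the Foxa genes changed by unequal amounts was tested on the difference between their probe sets within each array, which is no ratio of transcript abundance. Foxa1 minus Foxa2 was 2.11, 1.93 and 2.53 on cKO arrays and 1.8, 1.32 and 1.39 on control arrays, so that the change of Foxa1 was larger than that of Foxa2 by 0.69 ± 0.23 (SE) on the log2 scale, without overlap. An exact two-sided permutation test gave p = 0.1, the smallest this design allows (adjusted p = 0.133 over 4 pairs). Foxa3 minus Foxa1 had a mean of -0.97 on cKO arrays and -0.50 on control arrays, a difference of -0.46 ± 0.15 with the same exact p. Foxa3 and Foxa2 changed by amounts that differed by 0.22 ± 0.17, with overlapping groups (exact permutation p = 0.3). With 3 against 3 arrays none of these tests could pass at 0.05, so they do not settle whether the changes were unequal.

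Creb3l1 had the largest rise of the 9, ranking 101 among all genes by the size of the rise. This transmembrane factor is processed like ATF6 and drives genes of the secretory pathway. Its levels were 11.15, 10.95 and 11.18 on cKO arrays and 9.7, 9.3 and 9.01 on control arrays. The controls were more scattered than the cKO arrays, yet the groups lay more than 1 log2 unit apart. The rise was 1.76 ± 0.18 (3.38-fold, limma adjusted p = 0.00186). Mesenchymal and muscle markers also averaged higher on the cKO arrays, and the part of such RNA in the Creb3l1 result was not tested.

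Creb3l4, a relative with a similar membrane anchor, stood at 10.15, 9.65 and 10.12 on cKO arrays and at 8.72, 8.88 and 8.58 on control arrays. Its lowest cKO array was cKO 2, as for Atoh1, Spdef, Creb3l1 and Klf4. The rise was 1.25 ± 0.16 (2.37-fold, limma adjusted p = 0.00418). The change of Creb3l1 was larger than that of Creb3l4 by 0.51 ± 0.21, without overlap of the within-array differences (1, 1.3 and 1.06 on cKO arrays against 0.98, 0.42 and 0.43 on control arrays; exact permutation p = 0.1, adjusted p = 0.133, again the smallest p that the design allows).

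**Figure D2:**
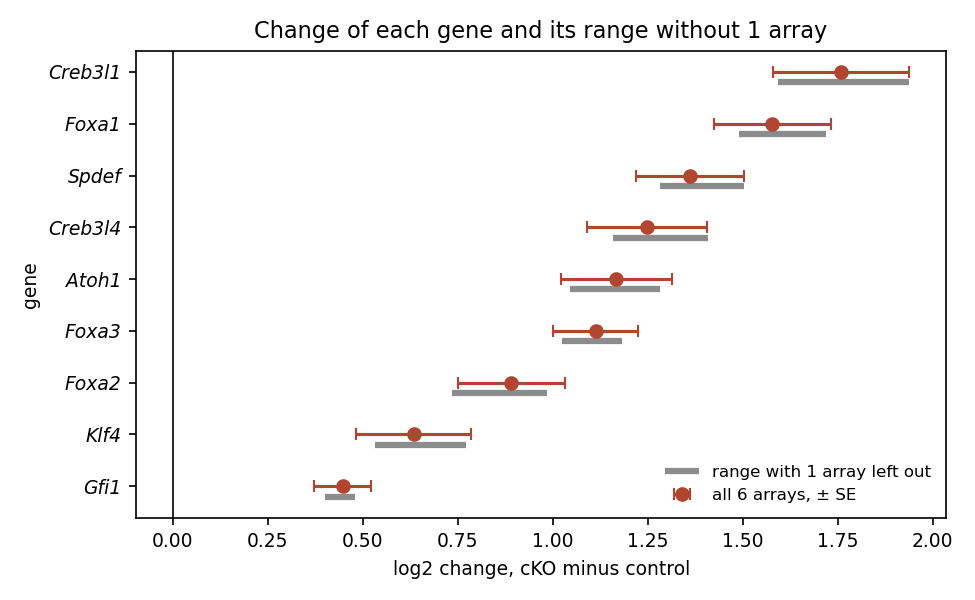
Log2 change, cKO minus control (x axis), of the 9 genes ordered from the largest at the top to the smallest (y axis). Red points are the fit on all 6 arrays with SE, grey bars the range with 1 array left out, and every bar lies above 0, from 0.4 at the low end for Gfi1 to 1.94 at the high end for Creb3l1.

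The arrays of a group were not interchangeable for these genes. Control 3 was the lowest control in 8 of the 9, all but Gfi1, and cKO 2 was the lowest cKO array in 5. Array cKO 3 was the highest in 6. With control 3 and cKO 2 both left out, 8 of the 9 genes were called higher and 0 lower, Gfi1 being the exception. The epithelial markers were themselves somewhat higher on the cKO arrays: 3 of 12 were called (Krt19 0.61 ± 0.09, Epcam 0.32 ± 0.07 and Krt8 0.32 ± 0.08, limma adjusted p = 0.008, 0.0372 and 0.0454), and Cldn3 changed by 0.64 ± 0.17 (adjusted p = 0.058). The calls of Epcam and Krt8 did not hold when any single array other than cKO 2 was dropped. Centring each array on its mean epithelial level, a choice made after the data were seen, lowered the median change of all genes by 0.22. All 9 changes were then still above 0, and 7 were called: Creb3l1 (1.53), Foxa1 (1.35), Spdef (1.14), Creb3l4 (1.02), Atoh1 (0.94), Foxa3 (0.89) and Foxa2 (0.67). Gfi1 (0.22, adjusted p = 0.101) and Klf4 (0.41, adjusted p = 0.0504) were not.

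**Figure D3:**
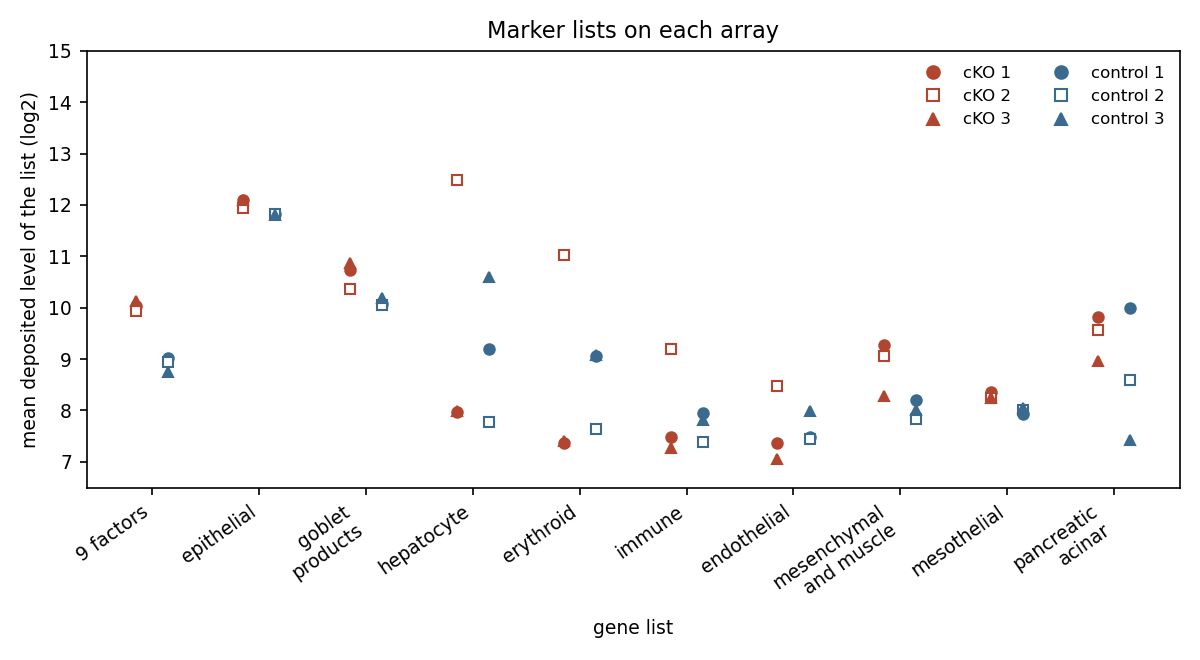
Mean deposited log2 level (y axis) of the 9 genes and of marker lists (x axis) on each array, cKO in red at the left of each pair and control in blue at the right. The hepatocyte and erythroid lists reach 12.49 and 11.02 on cKO 2, while the mean of the 9 genes lies at 10.04, 9.94 and 10.13 on cKO arrays and 9.01, 8.94 and 8.75 on control arrays.

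The closest profiles to that of Atoh1 were sought among all genes, by the root mean square distance between values centred on each gene's mean over the 6 arrays. The 5 nearest were Galnt12 (0.04 log2 units), a glycosyltransferase that starts mucin O-glycans, Ehf (0.06), an epithelial ETS factor, Mpzl1 (0.07), Sytl2 (0.08), a vesicle docking protein, and Elapor1 (0.08). Galnt12 stood at 10.45, 10.03 and 10.43 on cKO arrays and 9.27, 9.16 and 8.91 on control arrays, a course that shared the low cKO 2 and control 3 of Atoh1. Of the other 8 factors Creb3l4 was nearest, at rank 13 with a distance of 0.10, then Spdef at rank 37 (0.12) and Foxa3 at rank 89 (0.16). Klf4, Foxa1, Foxa2 and Creb3l1 followed at ranks 371 to 474, and Gfi1 was farthest at rank 857 (0.40). These distances are over 6 arrays in 2 groups and take in both the size of the group difference and the pattern within each group.

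Relatives of the factors in the same protein families were counted next. Of 55 relatives, 2 rose (Klf10 and Ehf) and 5 fell (Foxn2, Klf7, Creb3l3, Creb3l2 and Elf4), and their median change was 0. These counts lay near the shares over all genes (1101 higher and 1479 lower of 19938). Among 27 other forkhead genes 0 rose and only Foxn2 fell (-0.60 ± 0.10, limma adjusted p = 0.0118). At an unadjusted limma p under 0.05, 4 were higher and 4 lower, near the share over all genes (5294 of 19938). Foxp4 (0.33, adjusted p = 0.0507), Foxd2 (0.46) and Foxp1 (0.26) did not pass after adjustment. Among 16 other KLF genes Klf10, a TGF-beta-induced repressor, rose (0.50 ± 0.07, adjusted p = 0.00702) and Klf7 fell (-0.45 ± 0.09, adjusted p = 0.0277), which held only without cKO 2 among the fits on 5 arrays. Klf5, the KLF of proliferating crypt cells, stood at 12.53, 12.49 and 12.62 on cKO arrays and 12.34, 12.31 and 12.16 on control arrays, and its change of 0.28 ± 0.08 did not pass (adjusted p = 0.0829). Klf3 changed by 0.20 (adjusted p = 0.151).

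The CREB3 family split by member. Creb3l3, a factor of lipid metabolism in enterocytes and liver, had levels of 9.09, 9.36 and 8.85 on cKO arrays and 11.76, 11.7 and 11.85 on control arrays, against the direction of Creb3l1 and Creb3l4. Its fall was the largest of all the relatives (-2.67 ± 0.14, limma adjusted p = 0.000206). Creb3l2 fell by 1.00 on the log2 scale (adjusted p = 0.0224), a call lost without cKO 1, cKO 3, control 1 or control 3 (adjusted p up to 0.0779), and Creb3 changed by -0.32 (adjusted p = 0.158). Among the relatives of Spdef, Gfi1 and Atoh1, Ehf rose (1.08 ± 0.16, adjusted p = 0.0074) and Elf4 fell (-0.57 ± 0.08, adjusted p = 0.00653). Elf1 and Atoh8 changed by -0.27 and 0.30 (adjusted p = 0.0669 and 0.0674).

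**Figure D4:**
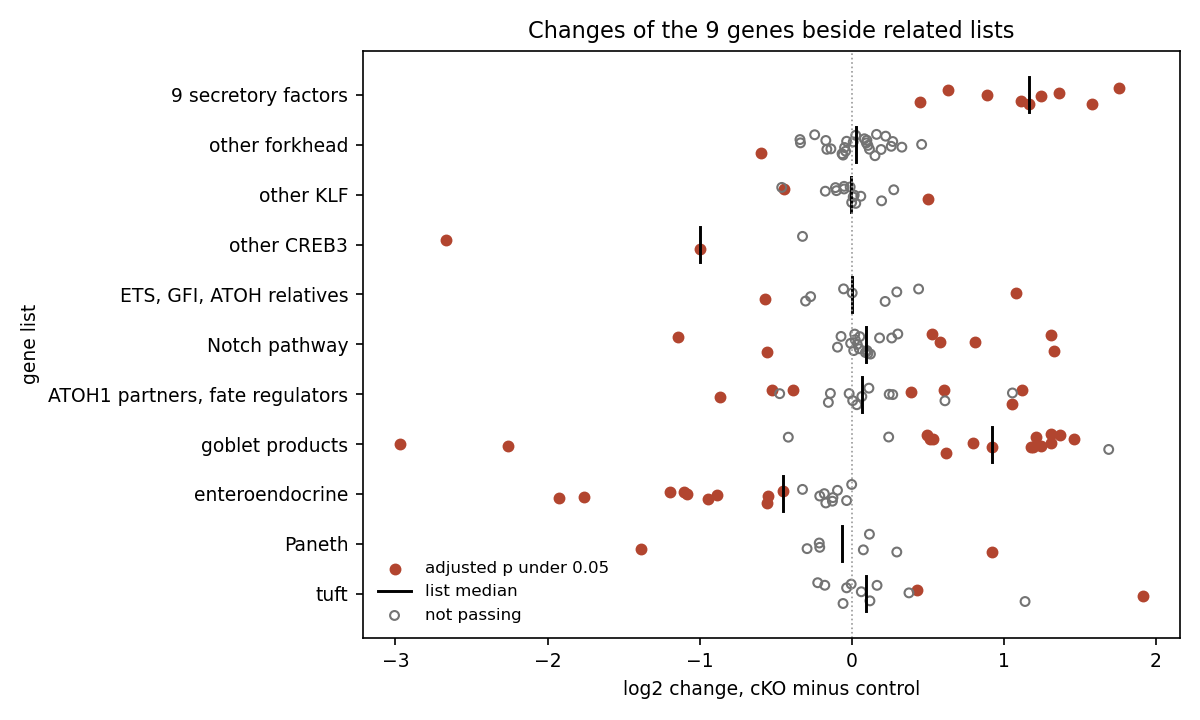
Log2 change, cKO minus control (x axis), of each gene in the 9 factors and in 10 related lists (y axis). Filled red points passed at an adjusted p under 0.05, open points did not, and black lines are list medians, which lie at 1.17 for the 9 factors, 0.92 for goblet products, -0.45 for enteroendocrine markers and within 0.1 of 0 for the lists of forkhead, KLF, Notch and tuft genes.

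The Notch pathway, which sets whether Atoh1 is made, changed in both directions. Of 24 genes 5 rose and 2 fell (median 0.10; all genes, -0.01). Dll4, a ligand, rose to 10.21, 10.44 and 10.33 on cKO arrays, against 9.15, 9.04 and 8.85 on control arrays (1.31 ± 0.11, limma adjusted p = 0.000859). Lfng, a fringe glycosyltransferase that modifies Notch receptors, rose by 1.33 ± 0.15 (adjusted p = 0.00313). Another ligand of the delta type, Dll1, which secretory progenitors display, fell to 8.68, 8.6 and 8.9 on cKO arrays, against 9.61, 9.92 and 10.07 on control arrays (-1.14 ± 0.14, adjusted p = 0.00406). All 3 cKO arrays lay below the 3 control arrays, the opposite of Atoh1. A further delta-type ligand, Dll3, had a change of -0.07 ± 0.07 (adjusted p = 0.615) and was named after its values were seen. Nrarp, a feedback target of Notch, fell (-0.56 ± 0.08, adjusted p = 0.00677).

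Hes1, the Notch-induced repressor of Atoh1, did not differ beyond its spread. Its levels were 10.4, 9.73 and 10.04 on cKO arrays and 10, 10.3 and 9.71 on control arrays (0.05 ± 0.21, limma adjusted p = 0.906). The count of 5 was 3 without cKO 3 and 3 without control 3 and cKO 2 together.

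Of 19 partners of ATOH1 and other regulators of secretory fate, 4 rose and 3 fell (median 0.07). Bhlha15, a helix-loop-helix factor that scales up the secretory apparatus of exocrine cells, rose by 0.61 ± 0.10 (limma adjusted p = 0.013). It marks pancreatic acinar cells too, whose 7 markers averaged 9.82, 9.56 and 8.96 on cKO arrays and 9.99, 8.60 and 7.43 on control arrays, and the part of such RNA was not tested. Hunk, a kinase gene, rose by 1.06 ± 0.19 (0.0152), and Sox9, a factor of progenitors and Paneth cells, by 1.12 ± 0.21 (0.0193, and up to 0.0685 on leaving out 1 array). Cbfa2t3, a corepressor named after its values were seen, also rose (0.39 ± 0.08). The endocrine factor Neurod1 fell (-0.86 ± 0.17, adjusted p = 0.0218), as did the tuft cell factor Pou2f3 (-0.39 ± 0.08) and Id3 (-0.52 ± 0.12), an inhibitor of helix-loop-helix dimers, both named after their values were seen. Neurog3, the endocrine determinant, stood at 7.3, 7.2 and 7.78 on cKO arrays and 7.96, 8.01 and 7.73 on control arrays, with overlap (-0.47 ± 0.17, adjusted p = 0.132). Xbp1, a factor of the unfolded protein response, was level at 11.74, 11.98 and 11.87 against 11.79, 11.77 and 11.83 (0.07 ± 0.08, adjusted p = 0.68). These calls were fragile: the higher count was 0 without cKO 3 or without control 2 and 1 without control 3, and the lower count 0 without control 1 or control 2.

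Products of goblet cells mostly rose with the factors. Of 19 measured, 14 rose and 2 fell (median 0.92), with 12 to 14 higher and 2 to 3 lower on leaving out 1 array. This list is not independent of the 9 factors, since it was written with an earlier result for goblet genes known. Muc2, the main gut mucin, stood at 12.77, 12.63 and 12.85 on cKO arrays and 11.74, 11.58 and 11.19 on control arrays, again with control 3 lowest. Tpsg1, a tryptase, and Ern2, the IRE1-beta sensor of goblet cells, rose by 1.46 ± 0.10 and 1.37 ± 0.15 (limma adjusted p = 0.00042 and 0.00274). Tff3, the trefoil peptide, rose less, to 13.38, 13.19 and 13.3 on cKO arrays against 12.78, 12.84 and 12.7 on control arrays (0.52 ± 0.08, adjusted p = 0.0101), and Guca2a, guanylin, by 0.92 ± 0.09. The 2 that fell were Zg16, a granule lectin (-2.26 ± 0.21), and St6galnac1, a sialyltransferase of mucin glycans named after its values were seen (-2.97 ± 0.38). In contrast, of 19 enteroendocrine markers 10 fell and 0 rose with limma (median -0.45; at an unadjusted p under 0.05, 11 were lower and 0 higher), a count of 5 to 8 on leaving out 1 array. Chga, a granule protein of endocrine cells, stood at 9.92, 9.93 and 10.13 on cKO arrays and 11.21, 11.06 and 10.96 on control arrays. The hormone genes Tac1 (-1.76 ± 0.18), Cck (-1.20 ± 0.15) and Pyy (-0.94 ± 0.11) also fell (limma adjusted p = 0.0018, 0.00429 and 0.00364).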

How the data were processed

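The deposited values are 1 log2 level per probe set and array, made by the authors with dChip, as the series text says. Neither the series text nor the labels give its version, background correction, normalization or expression model. The log2 scale was read from the values (0 to 14.25, array medians 7.73 to 7.84), and centring is unknown. Scanner files were not used here, so nothing could be called above background, and the number of arrays limits the precision.

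Of 35512 probe sets, 21789 have 1 gene in the platform annotation, 1621 several and 12102 none. Gene IDs matched a RefSeq table (GRCm38.p6) for 21698 of those with 1 gene. The probe set with the highest mean was kept for each of 19938 genes. Groups came from the source names. Levels were compared with limma 3.58.1 (lmFit, eBayes, two-sided) in R 4.3.3 without covariate or filter, adjusted by Benjamini-Hochberg over all genes, and checked on simulated data. Within-array differences of 4 pairs of genes were compared with exact permutation tests. No 2 arrays held the same values.

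The 9 genes, the 20 other lists and the tests were chosen with earlier results of these data known. Named are the 9 genes, Gata4 and Gata6, up to 4 genes with the smallest adjusted p of each list of gut cells or related factors, 9 fixed genes (such as Muc2, Hes1, Neurog3 and Alb), and the 5 profiles nearest to Atoh1. Others are marked. Tried were 10 changes of normalization, offset, filter, variance model, array weights, block, probe sets, arrays or covariate, each array left out in turn, and 1 alternative added after seeing the data (epithelial centring).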

Additional observations from a re-analysis of the deposited data

How the results depend on the processing

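The 9 factors had a change above 0 under each of the 17 alternatives. All 9 were called with an offset of 32 on the linear scale, without the genes of lowest mean level (13284 kept), with a trended and robust eBayes, with array weights, with the mean of all probe sets, with the hepatocyte covariate and without cKO 2. Under quantile normalization or median centring 8 were called, and with 1 array left out 7 to 9, never one lower. The background was less stable: 1101 genes were higher and 1479 lower with all arrays, against 708 and 878 without control 3 and cKO 2, and 629 to 959 higher and 844 to 1322 lower with 1 array left out. Epithelial centring, which lowers every change by the same amount, gave 664 higher and 5361 lower. Titles give both groups numbers 1 to 3, but deviations of same-numbered arrays correlated at -0.02, -0.43 and -0.18 over genes, so the numbers were not taken as pairs. With the replicate block 7 of the 9 were called (Gfi1 and Klf4 not, adjusted p = 0.0529 and 0.0729), among 622 genes higher and 827 lower. The differences between related genes held their sign without control 3 and cKO 2 (-0.46, 0.30, 0.76 and 0.33 for the 4 pairs in the order Foxa3 minus Foxa1, Foxa3 minus Foxa2, Foxa1 minus Foxa2 and Creb3l1 minus Creb3l4). Gata4 was called higher under 14 of the 17 alternatives and Gata6 under 15, with lowest changes of 0.24 and 0.23. Limits are the unknown normalization before deposit, 3 arrays per group, and the hepatocyte and erythroid RNA on cKO 2. Directions also rest on labels that the Gata4 and Gata6 levels could not check. Both were higher rather than reduced on the cKO arrays, and the reason was not tested.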

Other observations

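Markers of the other secretory cells and of the stomach gave few calls. Of 8 Paneth cell genes Nupr1 rose (0.92 ± 0.17, limma adjusted p = 0.0176) and the alpha-defensin gene Defa24 fell, at 9.69, 9.44 and 9.6 on cKO arrays against 11.22, 10.93 and 10.74 on control arrays. The call of Nupr1 was lost without cKO 1, cKO 3 or control 2 (adjusted p up to 0.0695). Wnt3 and Pla2g2a changed by -0.29 and -0.21 and did not pass. Lyz1 stood at 10.56 on cKO 2 against 7.58 and 7.27 on the other cKO arrays and 8.69, 8.01 and 7.82 on the controls. Of 12 tuft cell genes Rgs13 rose to 6.26, 5.91 and 6.55 on cKO arrays, against 4.37, 4.01 and 4.6 on control arrays. By mean level Rgs13 was at percentile 3.46 of all genes, and whether it lay above background could not be told. Sh2d6 rose by 0.43 ± 0.11 (adjusted p = 0.0469), which held only without cKO 1 among the fits on 5 arrays. Chat and Avil changed by -0.18 and -0.22 and did not pass.

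Foxa2 and Spdef are also expressed in mucous cells of the stomach. Of 11 gastric markers, Tff2 and Muc5ac among them, 0 passed in either direction with limma and all arrays (median -0.10). At an unadjusted limma p under 0.05, 4 were lower, while 5294 of all 19938 genes passed in either direction. After adjustment, 1 gene was called lower without control 1 or control 3. The goblet gene Retnlb, for a resistin-like protein, varied within both groups, at 7.82, 7.13 and 12.4 on cKO arrays and 5.57, 5.84 and 10.87 on control arrays, and did not pass (adjusted p = 0.634). It was named after its values were seen, as was Lyz1. Of the other lists, mesothelial markers had 3 of 5 higher and 1 lower, immune markers 1 of 13 higher and 1 lower, and neural and glial markers 0 of 5 higher and 1 lower. Hepatocyte, erythroid, endothelial and pancreatic acinar markers had 0 calls with limma in either direction, and 0 at an unadjusted p under 0.05, on 13, 5, 9 and 7 genes, although their levels varied between arrays.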
